A study of Mus musculus with 18 samples.

Results

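The comparison set 6 livers from late in a course of repeated carbon tetrachloride (CCl4) injury, 3 at week 8 and 3 at week 10, against 6 livers from early in it, 3 at week 2 and 3 at week 4. These are 12 of the 18 arrays of the series, taken by the week in their labels, and all 23111 genes with a name were compared. The comparison itself was chosen with earlier results of these data known. Every liver came from an adult male C57Bl/6N mouse, and 1 array stands for 1 mouse. Mice received CCl4 at 1.6 g/kg in olive oil by intraperitoneal injection 2 times a week and were killed 2 days after the last injection. The right lobe of each liver was used for RNA. By the labels the late mice were 18 and 20 weeks old and the early mice 12 and 14 weeks old, so weeks of CCl4 and age cannot be told apart. The 3 arrays of week 6 (16 weeks of age) and the 3 control arrays (20 weeks of age) stayed out of the contrast and are given as levels only. Replicates 1 and 2 of week 6 were nearly alike (SD of their differences 0.137, against 0.347 to 0.832 for the 17 other pairs within a group) and were counted as 1 sample, so that 17 samples entered the fit. The sources differ on whether control mice were given oil or left untreated.

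CCl4 is turned into a reactive radical by the P450 enzyme Cyp2e1 in hepatocytes around the central vein, and these cells die and are replaced after each injection. Macrophages clear the debris, and stellate cells become myofibroblasts that lay down collagen. Kupffer cells, the resident macrophages of the sinusoids, can be lost in injury and are replaced in part by cells from the blood. Hepatocytes also store, make and burn fat, under control of the sterol-sensing SREBP factors and of the fatty acid receptor PPAR alpha, and droplets of fat in them carry a coat of perilipins.

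Values were log2 RMA intensities, 1 per gene, on a scale that ran from 3.61 to 14.12, with an array median of 4.35. Albumin (Alb) had the highest value on each of the 18 arrays, and Col1a1, the main collagen of scars, lay between 8.32 and 8.56 in late livers, between 7.99 and 9.59 in early livers and between 5.38 and 5.88 in controls, so the treated arrays stood apart from controls as their labels say. One late array, week 10 replicate 2, carried RNA of pancreatic acinar cells. The mean of 11 acinar genes there was 0.99 above the early mean, against -0.16 to -0.04 on the other late arrays and -0.06 to 0.12 on early arrays, and the chymotrypsinogen gene Ctrb1 read 7.67 against 4.50 to 4.82 on the other late arrays. Without this array, Plin2, Mme, Cd163 and Igfbp2 kept an adjusted p of 0.0317 each, and the other 12 of the 16 genes described next as passing the adjusted p lay between 0.0541 and 0.0629.

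Few genes passed the thresholds between late and early livers. At a Benjamini-Hochberg adjusted p under 0.05 in limma and a fold change above 1.5, 5 of 23111 genes were higher in late livers (0.0216%) and 2 were lower (0.00865%). The 5 were Sytl5, Mme, Plin2, Pomt1 and Carhsp1, and the 2 were Cd163 and Igfbp2. At the adjusted p alone, 16 genes passed (0.0692%), 11 higher and 5 lower. The 6 late and the 6 early arrays did not overlap for 81 genes that were higher (0.35%) and 79 that were lower (0.342%), among them 5 of the 7 called genes. An unadjusted p under 0.05 was reached by 2491 genes, 1214 with higher values in late livers (5.25%) and 1277 with lower values (5.53%). The p was two-sided, so without any difference both directions together would be expected to hold a share of about 0.05. The shares of 5.25% and 5.53% are set beside the gene groups described further on. The gene lists were written with earlier results of these data known. A share above these values is therefore a description of a list and no test of it. The median change over all genes was -0.0025 on the log2 scale.

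**Figure D1:**
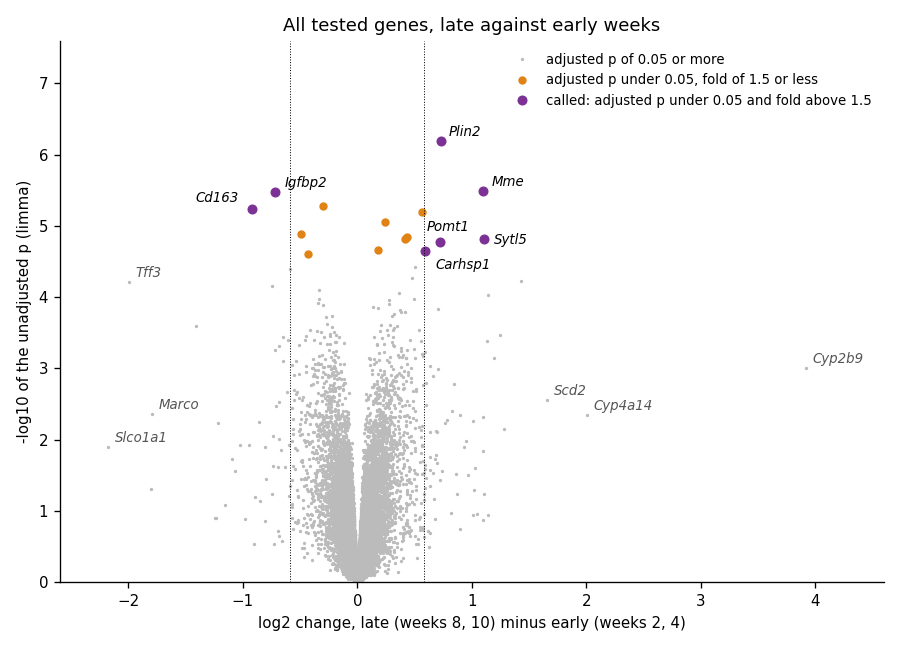
Log2 change of each of the 23111 tested genes, late (weeks 8 and 10) minus early (weeks 2 and 4), against -log10 of the unadjusted limma p; dotted lines mark a fold of 1.5. The 7 called genes reach at most 1.11, while Cyp2b9, Cyp4a14, Tff3, Slco1a1, Marco and Scd2 show wider mean differences without passing.

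The calls depended on how the weeks within an arm were handled and on which arrays entered the fit. The fit gave each week its own mean, so that differences between weeks 8 and 10, or 2 and 4, did not count as error. With 1 mean for each arm instead, 0 genes were called and the 16 genes had adjusted p of 0.0687 to 0.280. Neither arm held a called gene within itself: in limma, week 10 against week 8 gave 0 (0%), with 1695 genes at an unadjusted p under 0.05, and week 4 against week 2 gave 0 (0%), with 1413. These contrasts set 3 arrays against 3 and had a larger error than the main contrast, so a count of 0 does not show that the weeks were alike. Leaving out single arrays moved the count of 7 to between 1 and 14. It was 1 without week 10 replicate 3 or week 2 replicate 2, 3 without week 2 replicate 3 or week 4 replicate 2, and 4 without week 8 replicate 1, week 8 replicate 3 or week 10 replicate 2, and it was 14 without week 8 replicate 2.

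Sequence before the start site is shown for the 4 called genes that held their call best or that lead a gene group below, Plin2, Mme, Cd163 and Igfbp2. Each line gives the 250 bases before a RefSeq start (GRCm38.p6), read 5′ to 3′ along the gene, with motif matches in capitals. Plin2 lies on the minus strand at chr4:86670060-86670309, Mme on the plus strand at chr3:63294961-63295210, Cd163 on the plus strand at chr6:124304401-124304650 and Igfbp2 on the plus strand at chr1:72824230-72824479. Where several starts were listed, as for Mme (3) and Igfbp2 (2), the first by coordinate was taken.
Plin2: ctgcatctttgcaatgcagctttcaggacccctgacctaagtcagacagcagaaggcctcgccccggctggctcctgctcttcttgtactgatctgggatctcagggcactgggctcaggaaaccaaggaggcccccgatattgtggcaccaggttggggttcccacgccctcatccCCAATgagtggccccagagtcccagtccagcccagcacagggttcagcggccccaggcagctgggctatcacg
Mme: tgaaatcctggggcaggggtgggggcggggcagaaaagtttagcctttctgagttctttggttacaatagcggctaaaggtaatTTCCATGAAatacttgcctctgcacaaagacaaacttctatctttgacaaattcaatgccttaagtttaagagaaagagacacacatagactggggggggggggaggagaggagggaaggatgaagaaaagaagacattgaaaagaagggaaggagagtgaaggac
Cd163: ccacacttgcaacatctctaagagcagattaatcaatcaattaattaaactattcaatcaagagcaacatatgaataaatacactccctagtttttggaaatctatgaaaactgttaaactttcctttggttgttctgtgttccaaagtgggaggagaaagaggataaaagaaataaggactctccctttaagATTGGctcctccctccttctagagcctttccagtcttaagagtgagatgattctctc
Igfbp2: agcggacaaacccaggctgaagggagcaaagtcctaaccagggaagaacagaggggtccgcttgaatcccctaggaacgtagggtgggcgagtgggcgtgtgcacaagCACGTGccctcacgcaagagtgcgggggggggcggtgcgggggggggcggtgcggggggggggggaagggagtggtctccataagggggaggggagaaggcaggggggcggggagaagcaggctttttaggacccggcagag
The capitals mark a CCAAT box in Plin2 and, on the other strand, in Cd163 (CCAAT, in 34.2% of 27025 promoters of this length), a STAT-type palindrome in Mme (TTCNNNGAA, 7.11%) and an E-box in Igfbp2 (CACGTG, 5.93%). A sterol regulatory element (TCACNCCAC, 1.03%), a D-box (TTANGTAA, 2.14%) and an AP-1 site (TGANTCA, 6.87%) were searched on both strands as well and had no match in these 4 windows. A match is a description of the letters and no evidence of binding.

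Plin2 encodes the perilipin that coats lipid droplets in hepatocytes and is kept from degradation by the fat it covers. Its log2 intensity was 10.52 at the lowest, 10.72 at the median and 10.82 at the highest in late livers, against 9.57, 9.95 and 10.36 in early livers. The arms did not overlap, and late livers varied less (SD 0.11, n = 6) than early livers (SD 0.27, n = 6). Plin2 rose by 0.73 ± 0.08 (SE) on the log2 scale, a fold of 1.66 (limma adjusted p = 0.0149, the lowest of all genes). Week 2 had the lowest mean at 9.78, week 4 had 10.17, week 8 had 10.72 and week 10 had 10.68. Controls (10.24 to 10.33) lay inside the range of the early arm, and week 6 (10.79 to 11.06) at the top of the late range or above it. Plin2 stayed under an adjusted p of 0.05 without each of the 12 arrays in turn, with 0.0454 as the highest. It was 0.101 without all week 2 arrays, 0.0551 without all week 8 arrays and 0.135 without all week 10 arrays.

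**Figure D2:**
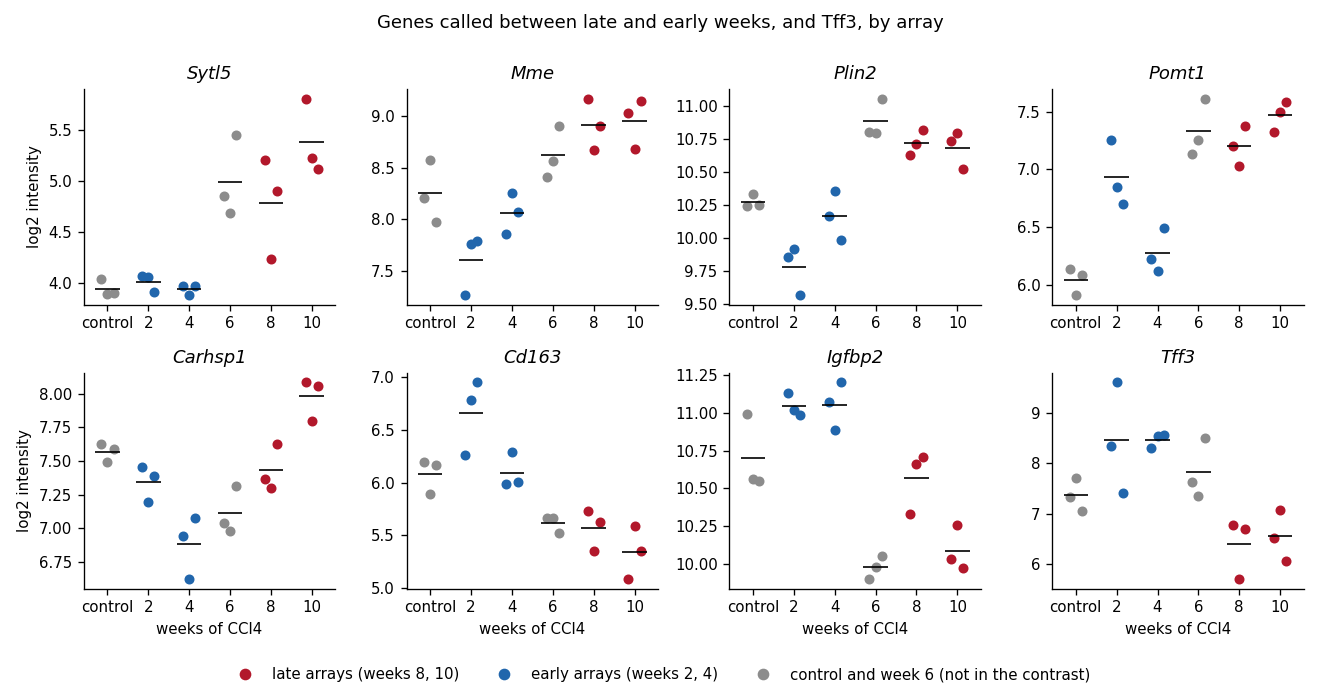
Log2 intensity of the 7 called genes and of Tff3 on each of the 18 arrays, by weeks of CCl4, with late arrays in red, early arrays in blue, control and week 6 arrays in grey and a bar at each group mean. Late and early points do not overlap for Sytl5, Mme, Plin2, Cd163, Igfbp2 and Tff3, and overlap for Pomt1 and Carhsp1.

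Plin2 was the only called gene among 23 measured genes of lipid droplets and lipid uptake. At an unadjusted p under 0.05, 4 of the 23 had higher values in late livers and 1 lower (17.4% and 4.35%), and the median change was 0.08. The count of 4 was 7 without week 4 replicate 2. The other perilipins did not pass, with changes of 0.01 for Plin1, -0.13 for Plin3, 0.08 for Plin4 and -0.08 for Plin5. Hilpda, an inhibitor of the triglyceride lipase Pnpla2, differed the other way by -0.33 ± 0.08 (adjusted p = 0.147). Lipa, the acid lipase that breaks down cholesteryl esters and triglycerides in lysosomes, passed the adjusted p below the fold threshold. It read 11.32, 11.43 and 11.51 (lowest, median, highest) in late livers and 11.04, 11.19 and 11.29 in early livers, with no overlap and a change of 0.24 ± 0.03 (adjusted p = 0.0290). Lipa passed in 5 of the 12 fits that left out 1 array, with adjusted p between 0.0350 and 0.0769, and did not pass without week 10 replicate 2 (0.0541). All treated livers lay above controls for Lipa, which had 10.81 to 10.84.

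Enzymes of fat synthesis had mostly higher values in late livers, without a single called gene. Of 23 measured genes of de novo lipogenesis, 14 reached an unadjusted p under 0.05 with higher values and 1 with a lower value (60.9% and 4.35%), and the median change was 0.32. Fads2, which makes the first double bond on the way to long polyunsaturated fatty acids, came nearest to the threshold. It had 12.12, 12.34 and 12.55 in late livers and 11.55, 11.77 and 12.23 in early livers, a change of 0.51 ± 0.08 (adjusted p = 0.0507). Its partner desaturase Fads1 did not overlap between arms (11.89 to 12.10 in late, 11.70 to 11.87 in early livers), for a change of 0.19 ± 0.04 (adjusted p = 0.140). Acly, which makes cytosolic acetyl-CoA from citrate, differed by 0.63 ± 0.20, the acetyl-CoA synthetase Acss2 by 0.63 ± 0.23, the elongase Elovl5 by 0.51 ± 0.16, and Me1, a source of NADPH, by 1.03 ± 0.40, all with adjusted p above 0.24. The synthesis enzymes Fasn (0.31 ± 0.27) and Acaca (0.26 ± 0.20) and the regulator Srebf1 (0.00 ± 0.16) did not reach an unadjusted p under 0.05. Lpin1, the phosphatidate phosphatase, was the gene with lower values, at -0.36 ± 0.13. The count of 14 was 9 without week 2 replicate 3, week 4 replicate 3 or week 8 replicate 3, and 7 without all week 2 arrays.

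Scd2 had the widest mean difference of these genes. This stearoyl-CoA desaturase read 10.02, 7.33 and 9.15 at week 8 and 10.49, 10.88 and 8.51 at week 10, against 7.11 to 8.01 in early livers and 5.73 to 6.03 in controls. Week 8 replicate 2 lay inside the early range and the other 5 late livers above it. The change was 1.66 ± 0.45 (adjusted p = 0.185). Scd1, the main desaturase of hepatocytes, differed by 0.32 ± 0.13, with 13.31 to 13.72 in late and 12.89 to 13.48 in early livers.

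The cholesterol pathway showed 7 of 17 measured genes of mevalonate and sterol synthesis at an unadjusted p under 0.05, all with higher values in late livers (41.2%), with a median change of 0.24 and 0 called. The widest were Lss, which closes the sterol rings (0.70 ± 0.22, adjusted p = 0.255), Hmgcs1, which opens the pathway (0.55 ± 0.20), Pmvk (0.50 ± 0.18) and Hsd17b7 (0.46 ± 0.18). Sqle, the squalene epoxidase, had -0.05. This count depended on week 10. It was 1 of 17 without all week 10 arrays, 3 without all week 4 arrays and 9 without all week 8 arrays. Among single arrays, it was 3 without week 8 replicate 3 or week 10 replicate 1, and 4 without week 2 replicate 1, week 4 replicate 3 or week 10 replicate 3. Of 11 LXR targets, which export or remodel sterols and phospholipids, 4 had higher and 1 lower values at an unadjusted p under 0.05 (36.4% and 9.09%), 6 changes were positive and 5 negative, and the median was 0.0049. Lpcat3, which remodels phospholipids, differed by 0.41, Scd1 by 0.32, and Nr1h3, the gene of LXR alpha, by -0.14. The canalicular sterol exporter Abcg8 read 8.93 to 9.51 in late and 8.37 to 8.96 in early livers, a change of 0.50 ± 0.09 (adjusted p = 0.0907), and its partner Abcg5 differed by 0.25 ± 0.09. Both were below controls in both arms, as controls had 9.83 to 9.99 for Abcg8 and 9.68 to 9.86 for Abcg5.

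Genes of fat oxidation had mostly higher values too. Of 24 measured PPAR alpha targets and genes of fatty acid oxidation, 13 had higher values in late livers at an unadjusted p under 0.05 and 0 lower (54.2%), with a median of 0.29 and 0 called. The mitochondrial carnitine carrier Slc25a20 came first (8.71 to 9.14 in late, 8.28 to 8.84 in early livers, 0.31 ± 0.06, adjusted p = 0.126), followed by the carnitine acetyltransferase Crat (0.66 ± 0.16) and the receptor gene Ppara itself (0.32 ± 0.08). The omega-hydroxylase Cyp4a14, a strong PPAR alpha target in mice, read 8.27, 4.58 and 6.70 at week 8 and 8.73, 6.24 and 6.75 at week 10, against 4.28 to 5.89 in early livers. As with Scd2, week 8 replicate 2 alone among late livers lay in the early range, and the change of 2.01 ± 0.58 had an adjusted p of 0.228. Cpt1a, the gate of mitochondrial fatty acid entry, had 0.02 ± 0.08. The count of 13 was 5 without all week 8 arrays and 6 without all week 2 arrays, and 15 without all week 10 arrays. Probes of the near-identical Cyp4a and Cyp2c genes can bind transcripts of their relatives, so single members are uncertain.

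**Figure D3:**
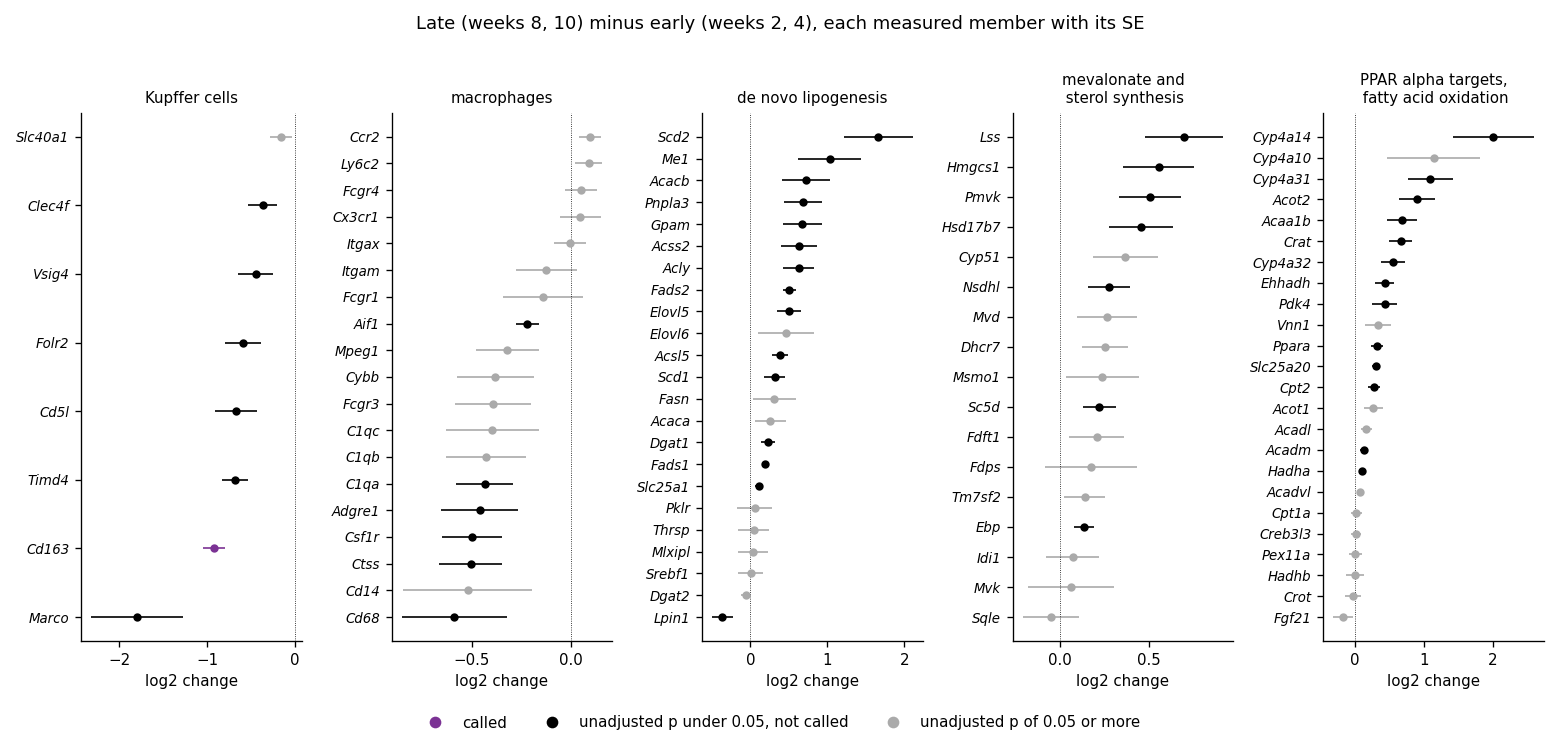
Log2 change, late minus early, of every measured member of 5 gene lists, with bars of 1 SE from the fit, called genes in purple, genes with an unadjusted p under 0.05 in black and the others in grey. All 8 Kupffer cell genes lie below 0, and 21 of 23 lipogenic genes, 16 of 17 sterol genes and 22 of 24 PPAR alpha and oxidation genes lie above it.

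Kupffer cell markers had lower values in late livers. Cd163, the scavenger receptor for haptoglobin and haemoglobin on resident macrophages, read 5.09, 5.47 and 5.73 (lowest, median, highest) in late livers against 5.99, 6.27 and 6.95 in early livers. The arms did not overlap, and Cd163 fell by 0.92 ± 0.12 on the log2 scale, or 1.89-fold (adjusted p = 0.0244). Week 2 had the highest mean at 6.66, week 4 had 6.09, week 8 had 5.57 and week 10 had 5.35. Controls (5.89 to 6.19) lay above all late livers, and week 6 (5.53 to 5.67) lay within the late range. The adjusted p exceeded 0.05 without week 2 replicate 2 (0.0709), week 2 replicate 3 (0.0575), week 4 replicate 2 (0.0769), week 8 replicate 3 (0.0515) or week 10 replicate 3 (0.0517), and lay between 0.0594 and 0.216 when all arrays of a week were left out.

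Of the 8 measured Kupffer genes, 7 reached an unadjusted p under 0.05 with lower values in late livers (87.5%, beside 5.53% of all genes), and the median change was -0.63. Timd4, a receptor for dying cells carried by long-resident Kupffer cells, had 4.14 to 4.50 in late and 4.67 to 5.77 in early livers, with no overlap (-0.68 ± 0.15, adjusted p = 0.128). Marco, a scavenger receptor for particles and bacteria, had the widest difference, -1.80 ± 0.52, with 5.94, 6.30 and 7.51 in late and 6.52, 8.18 and 9.98 in early livers (adjusted p = 0.228). Cd5l, Folr2, Vsig4 and Clec4f differed by -0.67, -0.60, -0.45 and -0.37, and the iron exporter Slc40a1 by -0.16. Without each array in turn, 5 to 7 of the 8 reached that p, and 4 did so without all week 2 arrays or without all week 8 arrays. In bulk liver, fewer cells of a type and less RNA per cell cannot be told apart.

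Taken as a mean over the 8 genes, relative to the early mean, late arrays lay at -1.01 to -0.44 and early arrays at -0.64 to 0.52, so the arms overlapped. Controls lay at -1.2 to -0.83, whereas for Cd163 alone they were above the late livers. Of 19 measured genes of macrophages in general, 6 had lower values at an unadjusted p under 0.05 and 0 higher (31.6% and 0%), with a median of -0.38 and 0 called. Csf1r, the receptor for the macrophage growth factor, differed by -0.50 ± 0.15, the lysosomal protease gene Ctss by -0.51 ± 0.16, and Adgre1, a surface marker of mouse macrophages, by -0.46 ± 0.19. Aif1 did not overlap between arms (4.55 to 4.85 in late, 4.89 to 5.05 in early livers). The monocyte genes Ccr2 (0.09), Ly6c2 (0.09) and Cx3cr1 (0.05) did not reach that p. The count of 6 was 3 without all week 2 arrays or without all week 8 arrays. At an unadjusted p under 0.05, genes of scar-associated macrophages gave 3 of 13 with lower values (23.1%) and 0 with higher values. They were led by Atp6v0d2 (-1.09 ± 0.41), Lgals3 (-0.80 ± 0.28) and Mmp12 (-0.79 ± 0.34). Over all 13, 5 changes were positive and 8 negative. Chemokines gave 3 of 19 with lower values at that p (15.8%), or 6 without week 2 replicate 1 or week 2 replicate 3. The scar-associated count was 0 without all week 8 arrays, 1 without week 2 replicate 2 or week 8 replicate 2 and 6 without week 4 replicate 2.

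Igfbp2 encodes a binding protein for insulin-like growth factors that hepatocytes secrete. It read 9.97, 10.29 and 10.71 in late livers against 10.89, 11.05 and 11.20 in early livers, with no overlap. Igfbp2 fell by 0.72 ± 0.09, or 1.65-fold (adjusted p = 0.0244). Week 10 lay lower (mean 10.09) than week 8 (10.57), while weeks 2 and 4 had 11.05 and 11.06, controls 10.55 to 10.99 and week 6 9.90 to 10.05. The adjusted p exceeded 0.05 without week 2 replicate 2 (0.0520), week 2 replicate 3 (0.0512) or week 10 replicate 3 (0.0517). It was 0.0220 without all week 8 arrays and between 0.101 and 0.295 without any other week. Igfbp2 was the only called gene of 12 in the growth hormone and IGF axis. There 3 reached an unadjusted p under 0.05, all with lower values (25%, beside 5.53% of all genes). Over the 12, however, 7 changes were positive and 5 negative, with a median of 0.01. Igfbp4 did not overlap between arms (11.56 to 11.71 in late, 11.73 to 12.02 in early livers, -0.23 ± 0.05, adjusted p = 0.143), and Igf1 differed by -0.21 ± 0.09.

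Growth hormone also sets which liver genes differ between the sexes. Of 22 measured male-biased genes, 6 had lower values in late livers at an unadjusted p under 0.05 and 0 higher (27.3%), with a median of -0.09 and 0 called. The count of 6 was 3 without week 2 replicate 3, week 4 replicate 3, week 8 replicate 3 or week 10 replicate 1. Over all 22, 8 changes were positive and 14 negative, and the control mean lay above both arms for 21. The list mean, relative to the early mean, was -0.76 to 0.73 on late arrays and -0.38 to 0.41 on early arrays. Controls lay at 1.83 to 2.16. Serpina1e, an alpha-1-antitrypsin isoform, had 12.00 to 12.98 in late and 13.04 to 13.46 in early livers (-0.72 ± 0.16, adjusted p = 0.139). Slco1a1, an anion transporter, had 5.4, 8.49 and 11.62 in late and 9.79, 11.06 and 11.62 in early livers (-2.18 ± 0.75), with controls at 12.43 to 12.54. Of 23 female-biased genes, 3 had higher values and 0 lower at that p (13% and 0%). Over all 23, 16 changes were positive and 7 negative. Cyp2b9, a P450 that adult male livers normally keep low, had the widest mean difference of all 23111 genes, 3.92 ± 0.92 (adjusted p = 0.149). It read 10.44, 3.95 and 8.87 at week 8 and 9.68, 6.14 and 9.0 at week 10, against 3.85 to 4.41 in early livers and 3.76 to 3.85 in controls. Only week 8 replicate 2 again lay in the early range. Cyp2c40 had 4.15 to 6.10 in late and 3.97 to 4.44 in early livers (1.14 ± 0.20, adjusted p = 0.0862), with both arms below the 7.96 to 8.39 of controls.

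Mme, or neprilysin, is a peptidase on the cell surface that cuts small peptide hormones. It read 8.67, 8.96 and 9.17 in late livers against 7.27, 7.82 and 8.26 in early livers, and the nearest arrays were 0.42 apart, the widest gap of the called genes. Mme rose by 1.10 ± 0.14, or 2.14-fold (adjusted p = 0.0244). Week means were 7.6, 8.06, 8.91 and 8.95 at weeks 2, 4, 8 and 10, and controls had 7.97 to 8.57. The adjusted p exceeded 0.05 without week 2 replicate 2 (0.0520) or week 10 replicate 3 (0.0517), and lay between 0.0594 and 0.196 when all arrays of a week were left out.

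Sytl5, a synaptotagmin-like protein of vesicle transport, read 4.24, 5.16 and 5.81 in late livers, and was near the floor of the arrays in early livers (3.88, 3.97 and 4.07) and in controls (3.89 to 4.04). It rose by 1.11 ± 0.16, or 2.16-fold (adjusted p = 0.0296). The gene lies on chromosome X (GRCm38.p6, 9747622 to 9998864). Week 8 replicate 2 was the late array nearest the early ones. Without that array the adjusted p was 0.00916 and without week 4 replicate 3 it was 0.0499, while without each of the other 10 arrays it lay between 0.0517 and 0.0946. Pomt1, which starts O-mannosyl sugars on dystroglycan and is encoded on chromosome 2 (32236590 to 32255005), had 7.03, 7.35 and 7.58 in late and 6.13, 6.60 and 7.26 in early livers, with week 2 replicate 1 inside the late range. It rose by 0.72 ± 0.11 (adjusted p = 0.0304), and week 4 (mean 6.28) lay below week 2 (6.94). Carhsp1, an RNA-binding protein encoded on chromosome 16 (8658580 to 8672153), had 7.30, 7.71 and 8.08 in late and 6.62, 7.14 and 7.46 in early livers and rose by 0.59 ± 0.09 (adjusted p = 0.0343), with controls (7.49 to 7.63) above all early livers and below the late median. Pomt1 passed only without week 2 replicate 1 (0.0186), week 8 replicate 2 (0.0297) or week 4 replicate 3 (0.0375), and lay between 0.0578 and 0.0977 without each of the other 9. Carhsp1 passed only without week 8 replicate 2 (0.0350) or week 4 replicate 3 (0.0375), and lay between 0.0541 and 0.101 without each of the other 10.

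Another 9 genes passed the adjusted p with folds of 1.5 or less. Those that rose were Tfpi2, a Kunitz-type protease inhibitor (0.57 ± 0.08), Akr1e1, an aldo-keto reductase (0.43 ± 0.06), Acad9, which helps to assemble respiratory complex I (0.42 ± 0.06), Phkb, a subunit of glycogen phosphorylase kinase (0.42 ± 0.06), Lipa, and the lipid kinase Pip4k2c (0.18 ± 0.03). Those that fell were Il6ra, the binding chain of the interleukin-6 receptor (-0.49 ± 0.07), the microRNA gene Mir1946a (-0.43 ± 0.07) and Hmox2, the constitutive heme oxygenase (-0.30 ± 0.04). Tfpi2 had 9.46 to 9.97 in late, 8.72 to 9.45 in early and 8.73 to 8.85 in control livers. Il6ra had 9.10 to 9.81 in late, 9.78 to 10.26 in early and 10.26 to 10.36 in control livers, and was the single gene of 23 in the acute phase list to pass. These calls rested on single arrays. Of the 12 fits that left out 1 array, Hmox2 passed in 8, Tfpi2 in 7, Il6ra in 6, Lipa in 5, Akr1e1 and Acad9 in 4 each, Phkb in 3, Mir1946a in 2 and Pip4k2c in 1. None of the 9 passed without week 10 replicate 2 (Il6ra 0.0612, the others 0.0541), nor without week 2 replicate 2 or week 4 replicate 2, where adjusted p ran up to 0.112.

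The genes with the next lowest p among lower values were Ighv2-3, Tff3, Tent5c, Chchd7 and Hdgfl2, with adjusted p of 0.0517 to 0.0907. Tff3, a trefoil peptide, differed by -1.99 ± 0.34 (adjusted p = 0.0665), with 5.71, 6.60 and 7.07 in late livers, 7.40, 8.45 and 9.61 in early livers and 7.06 to 7.71 in controls. The arms did not overlap, and late livers lay at the lower end of the control range or below it. Tent5c, a poly(A) polymerase, had 6.19 to 6.75 in late livers and 7.14 to 7.22 in early livers (-0.75 ± 0.13, adjusted p = 0.0728).

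No gene of the scar matrix was called. Of 38 measured matrix genes, 1 had a higher and 4 a lower value at an unadjusted p under 0.05 (2.63% and 10.5%), with a median of -0.06. Without single arrays the lower count ran from 0 (week 2 replicate 2) to 8 (week 2 replicate 3). It was 1 without week 8 replicate 1 or 2, and 2 without week 2 replicate 1, week 4 replicate 3, week 8 replicate 3, week 10 replicate 1 or week 10 replicate 3. Col1a1 differed by -0.36 ± 0.31 and Col1a2 by -0.34 ± 0.28. The late livers were closely alike for Col1a1 (SD 0.11, n = 6), while the early livers ranged more widely (SD 0.79, n = 6). Of 17 genes of activated stellate cells, 3 had higher values and 0 lower at an unadjusted p under 0.05 (17.6% and 0%). Over all 17, 9 changes were positive and 8 negative, with a median of 0.02. Acta2, the actin of myofibroblasts, had -0.15 ± 0.24. At that p, mitosis genes gave 0 of 26 in either direction. Their mean spread over the same range on late arrays (-0.62 to 0.69) and early arrays (-0.61 to 0.69). DNA replication gave 0 higher and 2 lower of 22 at that p, while 19 of its changes were positive and 3 negative. The circadian clock gave 0 of 19. Without 1 array the lower counts ran from 0 to 2 for mitosis, from 1 to 2 for DNA replication and from 0 to 3 for the clock.

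**Figure D4:**
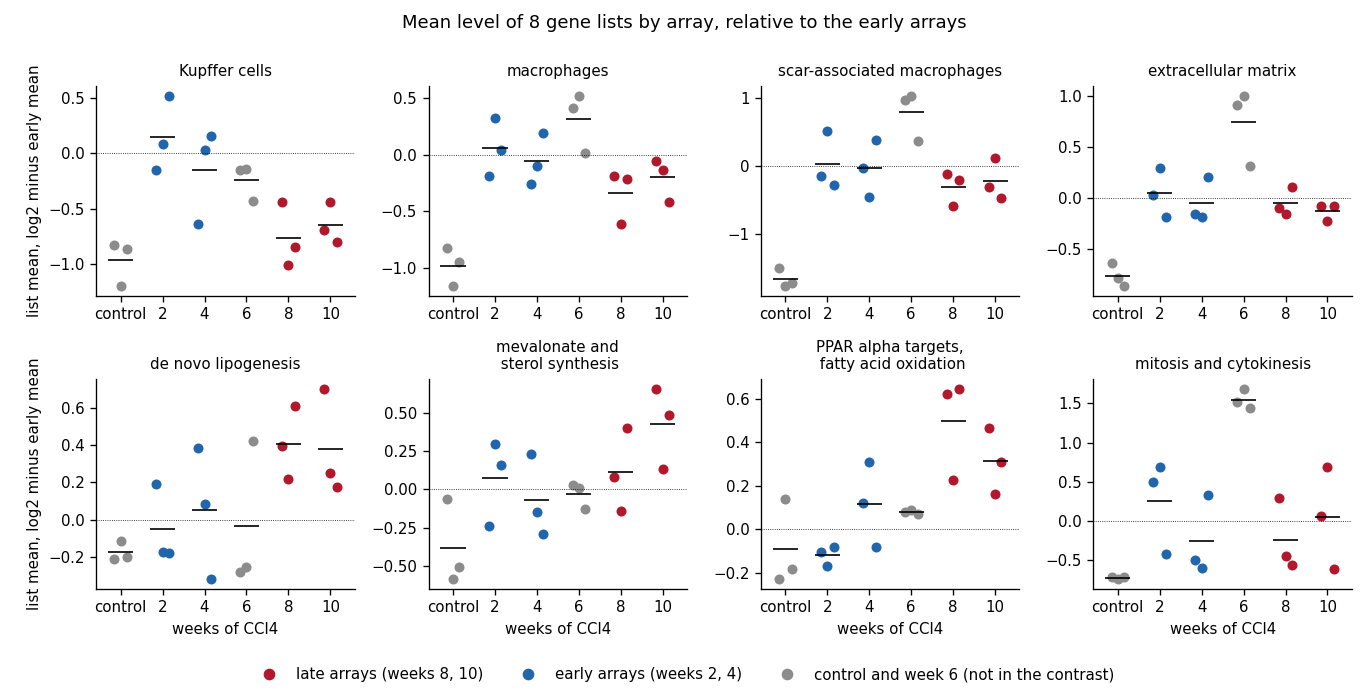
Mean log2 intensity of 8 gene lists on each array, minus the mean of the 6 early arrays, by weeks of CCl4, with late arrays in red, early in blue, control and week 6 in grey and a bar at each group mean. Late arrays lie at -1.01 to -0.44 for Kupffer genes and at 0.16 to 0.65 for PPAR alpha and oxidation genes, and the 2 arms overlap for these lists as for matrix and mitosis genes.

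Markers of other cell types gave 0 called genes. Higher and lower counts here are at an unadjusted p under 0.05, reached by 5.25% (higher) and 5.53% (lower) of all genes. Neutrophil genes had 0 higher and 1 lower of 11 (0% and 9.09%), T and NK cells 1 and 1 of 20 (5% and 5%). B and plasma cells had 3 and 1 of 19 (15.8% and 5.26%), MHC class II and dendritic cells 1 and 0 of 14 (7.14% and 0%). Cholangiocytes had 1 and 0 of 13 (7.69% and 0%), endothelial cells 1 and 1 of 20 (5% and 5%). At any p, changes were negative for 10 of the 11 neutrophil genes and positive for 14 of the 19 B and plasma cell genes. The small counts at that p moved when 1 array was left out. B and plasma cells had 1 to 5 higher (1 without week 8 replicate 3, 5 without week 8 replicate 1), neutrophils 0 to 3 lower (0 without week 8 replicate 3 or week 10 replicate 3, 3 without week 2 replicate 3 or week 4 replicate 3), T and NK cells 0 to 2 higher, MHC class II and dendritic cells 1 to 3 higher and endothelial cells 0 to 2 lower. Endothelial genes had 10 of 20 lower without all week 10 arrays. Hepatocyte identity genes had 0 higher and 3 lower of 15, with a median of -0.01. All 16 genes of the unfolded protein response had negative changes, with a median of -0.23, and Atf4 reached an unadjusted p under 0.05 (-0.20 ± 0.09). That count of 1 was 5 without week 10 replicate 2, 3 without week 2 replicate 3, week 4 replicate 1 or week 4 replicate 2, and 0 without week 2 replicate 1, week 8 replicate 1 or week 10 replicate 3. Members of a list share regulation and cells, so they are not independent of each other.

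A list was made of 60 genes from the study's account of the late weeks, and 54 were measured here. The study names them on unlike grounds, among them matrix genes less regulated after week 6 and Cyp2e1 as constant. Its array calls were against control mice, so late against early is a different contrast. As the genes come from work on these samples, they are not independent evidence. Of the 54, 0 passed the adjusted p. At an unadjusted p under 0.05, 18 had higher and 6 lower values (33.3% and 11.1%, beside 5.25% and 5.53% of all genes). The median change was 0.09. The lower count was 3 without week 4 replicate 2 or week 10 replicate 3. The arms did not overlap for 4 of the 54, all with higher values in late livers, as was so for 0.35% of all genes. They were Acss3, an acyl-CoA synthetase (6.14 to 7.48 in late, 4.81 to 5.90 in early livers, 1.19 ± 0.27), Hsdl2 (0.56 ± 0.12), Mmp7 (0.35 ± 0.08) and Spats2 (0.29 ± 0.08). Insig1 differed by 0.43 ± 0.18, Pparg by 0.32 ± 0.10, Rxra by -0.07 ± 0.03, Glul by -0.23 ± 0.24 and Cyp2e1 by -0.10 ± 0.18. Cyp2e1 read 12.29 at week 10 replicate 2, the array with acinar RNA, against 13.27 to 13.62 on the other late arrays and 13.14 to 13.62 in early livers.

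Beside untreated or oil-treated liver, the called genes did not share 1 pattern. For the 11 genes that rose at the adjusted p alone, the control mean lay below both arms for 5, between them for 5 and above both for 1. For the 5 that fell, it lay between the arms for 4 and above both for 1. Lipa, Pomt1 and Sytl5 were among those with a control mean below both arms, and Il6ra had controls above both. For Sytl5, control and early livers overlapped near the floor of the arrays, so the order of their means says little.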

How the data were processed

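The deposited table held log2 expression values of 18 Affymetrix Mouse Gene 2.0 ST arrays, which the authors made by RMA (background correction, quantile normalisation and probe summary, with affyPLM) on a custom probe set definition with 1 feature per Entrez gene; tool versions were not given in the sources used here. Quantile normalisation forces all arrays to 1 distribution, and 17 of the 18 shared 1 set of sorted values, so a shift common to all genes cannot be seen. Array data have no read depth, and the number of arrays limits the precision. Of 23748 features, 637 without 1 gene name were left out.

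A linear model with 1 mean for each of 6 groups was fitted with limma 3.58.1 in R 4.3.3, and the mean of weeks 8 and 10 minus the mean of weeks 2 and 4 was tested, two-sided, with Benjamini-Hochberg adjustment over 23111 genes. Every adjusted p in the text comes from limma. Each array is a separate mouse by the labels. No array scan date was used here. Genes were named by a rule: up to 10 rises and 10 falls that were largest among called genes without overlap between arms, with the genes of lowest p filling a direction up to 10, called list members, and genes the study names for late weeks. Carhsp1 and other list members were named after their values were seen. The gene lists, 49 in all, and the comparison itself were chosen with earlier results of these data known. Same-numbered arrays did not deviate together (correlations of -0.217 to 0.352 over 18 pairs, 4 above 0.1), so numbers were not taken as pairs. Alternatives were other designs, filters, thresholds and leaving out each array or week. The fit was tested on simulated data with independent noise for each gene and no differences between weeks within an arm. That simulation could not show how the calls depend on weeks or on single arrays. Figures were drawn with matplotlib 3.10.9 in Python 3.11.15.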

Additional observations from a re-analysis of the deposited data

Results flagged for a closer look

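In groups of 6 arrays, an array was singled out where its gap to the nearest other array, as a share of the group's range, passed the critical value of Dixon's test, which chance alone gives in about 1 of 20 groups. Among 150 gene and arm pairs, 11 were singled out. In late livers these were Acad9 at week 10 replicate 3 (7.185, nearest 6.917), Hmox2 at week 8 replicate 1 (8.928, nearest 9.035), Insig1 at week 8 replicate 2 (11.44, nearest 11.86), Snhg14 at week 8 replicate 1 (4.092, nearest 3.965), Cpt1a at week 8 replicate 3 (11.28, nearest 11.05) and Cyp2e1 at week 10 replicate 2 (12.29, nearest 13.27). In early livers they were Hdgfl2 at week 4 replicate 1 (7.585, nearest 7.361), Glul at week 4 replicate 2 (11.15, nearest 10.31) and, all at week 2 replicate 2, Apon (10.95, nearest 11.32), Hsdl2 (7.623, nearest 8.145) and Fos (7.4, nearest 5.996).

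Among 98 list and arm pairs, 6 list means, relative to the early mean, had such an array. Pancreatic acinar genes (0.9897, nearest -0.0408) and drug-metabolising P450s (-0.6045, nearest -0.02875) stood apart at week 10 replicate 2, the circadian clock (0.2014, nearest -0.02769) at week 8 replicate 1, immediate early genes (0.8665, nearest 0.06771) at week 2 replicate 2, acinar genes (0.1214, nearest 0.005541) at week 4 replicate 1 and adipocyte genes (-0.0489, nearest 0.00156) at week 4 replicate 3. The part of acinar RNA in the P450 and Cyp2e1 values was not tested.

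Week 6, outside the comparison, had list means above every late, early and control array for 3 lists. Its lowest array was at 0.3174 for matrix genes against 0.2932 for the highest other array, at 0.2204 for activated stellate cells against 0.1722, and at 1.438 for mitosis genes against 0.6945.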

How the results depend on the processing

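Against 7 called genes, 4 were called with the 12 late and early arrays fitted alone and 0 with 1 mean per arm on those same 12 arrays. The count was 12 with low genes left out, 0 against a fold of 1.2 with treat, 16 by adjusted p alone and 2 above a fold of 2. Leaving out 1 array gave 1 to 14, and leaving out a week gave 2 without week 2, 1 without week 4, 5 without week 8 and 0 without week 10. With the replicate block, which the check of pairing did not bear out, 10 genes were called (6 higher, 4 lower). The counts of 0 for week 10 against 8 and for week 4 against 2 became 1 without week 10 replicate 3 and 1 without week 2 replicate 1, within a range of 0 to 1. The cause of these moves was not tested. For 75 named genes, 1949 values under these settings were compared with those reported. Of these, 1632 stayed, 220 lost and 16 gained the threshold, 81 moved in size, and no gene past the threshold changed sign. Some settings alter only the spread or the test and leave the log2 change as it was, so no sign could move under them. Among these are the 12 arrays alone, 1 mean per arm, 18 separate arrays and treat. The median change kept its sign under all 26 settings for 20 of 49 lists, among them Kupffer cells (-0.74 to -0.52), macrophages (-0.46 to -0.21), lipogenesis (0.21 to 0.46), sterol synthesis (0.11 to 0.37) and PPAR alpha targets (0.18 to 0.40), and changed sign at least once for 29, among them the growth hormone and IGF axis (-0.13 to 0.07), activated stellate cells (-0.01 to 0.06), mitosis (-0.27 to 0.11), LXR targets (-0.06 to 0.21), T and NK cells (-0.02 to 0.01) and endothelial cells (-0.31 to 0.15). Tff3 was among the genes that gained the threshold, with adjusted p of 0.0433 with all 18 arrays taken separately and 0.0255 with low genes left out. Centring the arrays on 2643 bright genes moved the median change of all genes to -0.0048.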
